A study of Mus musculus with 23 samples.

Results

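Clone B4, an Egfr knockout clone of the mouse pancreatic stellate cell line PSC4, was compared with PSC4 Rosa, the control of the same line that the labels give as wild type for Egfr. The comparison rests on 6 libraries, 3 titled PSC4 KO B4 and 3 titled PSC4 Rosa, out of 23 RNA-seq libraries in the series. They were chosen by title among the libraries of the sorted stellate cells. Each group was grown with the pancreatic tumor organoid lines T6-LOH, T12-LOH and T69A, 1 library per organoid line, for 3.5 days in Matrigel in medium labelled as reduced or control. The cells were then sorted apart, and only the stellate fraction is described here. A second knockout clone, A3, had 3 libraries with the same organoid lines. Another stellate line, PSC5, had 1 library each of Rosa and of the clones C5 and D4, all with T6-LOH. The labels do not say how Egfr was knocked out, and they give no age, sex or strain. B4 is taken to be 1 clone from its name, so the knockout and the clone's own history cannot be told apart within it. The 3 libraries of a group are co-cultures of 1 stellate line with different organoid lines. With organoid line as a block, the p-values rest on how the B4 minus Rosa difference varied over these co-cultures, with spread shared over genes.

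Pancreatic stellate cells are the mesenchymal cells that become cancer-associated fibroblasts (CAFs) in pancreatic tumors, where they lay down collagen and secrete cytokines and growth factors. Egfr encodes the epidermal growth factor receptor, a receptor tyrosine kinase that signals through the RAS-ERK pathway and is bound by ligands such as amphiregulin, epiregulin and transforming growth factor alpha. CAFs are commonly described as inflammatory, with high cytokine expression, or myofibroblastic, with high contractile and matrix expression, and tumor organoids can drive stellate cells toward either state.

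The libraries held 23737784 to 34828131 estimated counts in Rosa and 22656921 to 26344461 in B4. Stellate and fibroblast markers summed to 15600 to 23600 CPM (estimated counts per 1000000 counts of a library) in Rosa and 15300 to 27300 in B4, against 85.9 to 560 in the sorted organoids of the Rosa co-cultures. Epithelial markers summed to 79.1 to 238 CPM in Rosa and 119 to 315 in B4, against 17900 to 24400 in those organoids. Estimated from 21 epithelial markers, organoid RNA made up 0.165 to 0.743% of the Rosa libraries and 0.167 to 0.698% of the B4 libraries. The 17 immune markers summed to 38.2 to 70.3 CPM in Rosa and 25.5 to 65.7 in B4, with Ptprc, Cd3e, Cd8a, Adgre1 and Tyrobp at 0 in all 6 libraries. The 13 endothelial markers summed to 6.65 to 7.10 CPM in Rosa and 5.35 to 10.6 in B4, with Cldn5 at 0. Libraries of the same organoid line deviated from their group means together, with correlations of 0.536, 0.521 and 0.499 for T6-LOH, T12-LOH and T69A. In these sorted bulk samples, fewer cells of a type and less RNA per cell cannot be told apart. CPM values below are given in the order T6-LOH, T12-LOH, T69A, and adjusted p-values come from edgeR's quasi-likelihood test with organoid line as a block.

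Egfr RNA was lower in every B4 library than in every Rosa library, and it remained well above 0. Egfr (ENSMUSG00000020122, chromosome 11) stood at 285, 294 and 330 CPM in Rosa and at 118, 220 and 200 CPM in B4, a mean of 59.2% of Rosa. The log2 difference was -1.26 with T6-LOH, -0.42 with T12-LOH and -0.72 with T69A. In the fit it was -0.80 ± 0.18 (n = 3 pairs, adjusted p = 0.023), where ± gives an SE derived from the test statistic. An exact permutation test of the mean log2 difference over the 3 pairs gave p = 0.25 and one over all splits into 3 against 3 gave p = 0.1, both two-sided and each the smallest value possible here. The call was lost when a T69A library was left out. Without the Rosa T69A library the adjusted p was 0.119, and without the B4 T69A library it was 0.118. In these runs 49.7 and 49.2% of all genes called were called again. The size of the fall did not rest on T69A, at -0.84 without that pair and -0.57 without the T6-LOH pair. Clone A3 held less Egfr RNA, at 59.2, 106 and 101 CPM, and B4 exceeded A3 by 1.02 on the log2 scale (adjusted p = 0.00286). In PSC5, where nothing is replicated, Egfr was 432 CPM in Rosa, 114 in C5 and 347 in D4.

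The Egfr transcripts were affected unequally. The transcript of 10208 bases was estimated at 251, 252 and 280 CPM in Rosa and 117, 213 and 196 CPM in B4, which is 67.1% of Rosa. The shorter transcript of 2943 bases was estimated at 29.4, 37.2 and 44.0 CPM in Rosa and at 0.744, 3.06 and 1.15 CPM in B4, 4.48% of Rosa. It made up 10.3, 12.7 and 13.3% of the Egfr reads in Rosa and 0.628, 1.39 and 0.576% in B4. Its share in A3 lay between, at 4.25, 4.09 and 5.10%. In PSC5, with 1 library each, the share was 10.4% in Rosa, 1.44% in C5 and 2.19% in D4, so a low share was not particular to B4. These are estimates of how reads divide between overlapping transcripts, and no test was made on them.

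**Figure D1:**
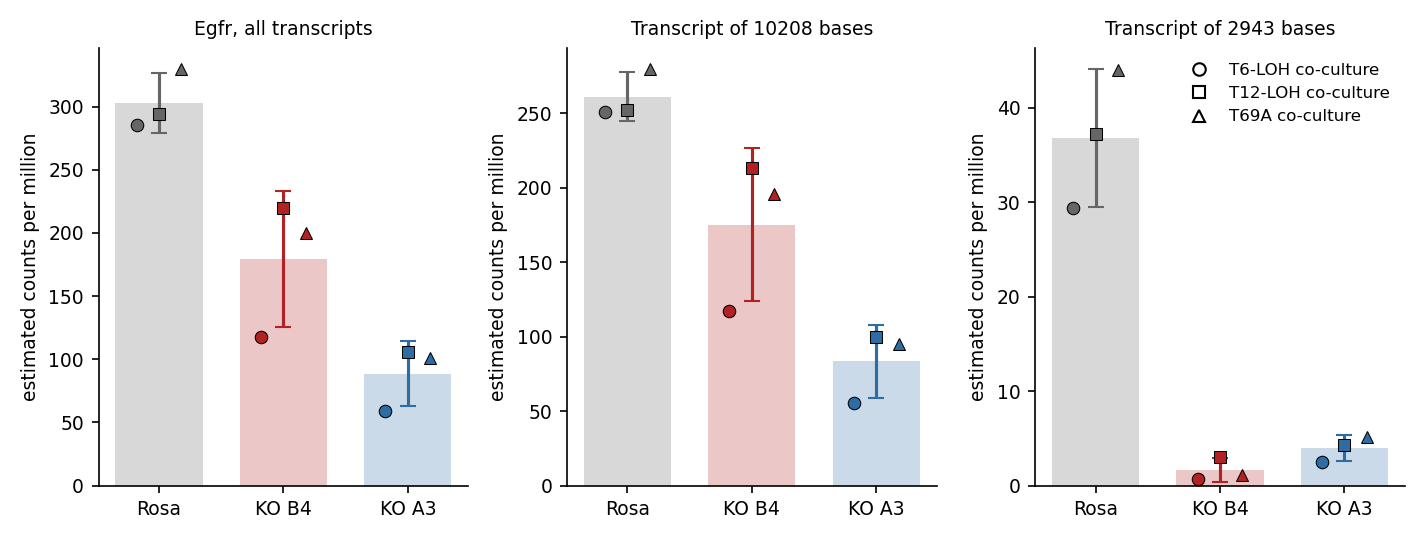
CPM for all Egfr transcripts together (left), the transcript of 10208 bases (middle) and the transcript of 2943 bases (right) in the 3 PSC4 lines; bars are means, error bars the SD over 3 co-cultures, and points single libraries. B4 retained 59.2% of the Rosa level of all Egfr RNA but 4.48% of the shorter transcript, and the vertical scales differ between panels.

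Beyond Egfr, a large part of the transcriptome differed between B4 and Rosa. Of 13826 genes tested, 2946 rose (21.3%) and 2957 fell (21.4%) in B4 at an adjusted p under 0.05, together 42.7%. Among these, 741 were more than 2-fold higher and 796 more than 2-fold lower, and 69 were more than 8-fold higher and 215 more than 8-fold lower. Over the 9406 genes with at least 10 CPM, the median absolute log2 difference between B4 and Rosa with the same organoid line was 0.272, 0.3 and 0.324. Between Rosa libraries of different organoid lines it was 0.122 to 0.161, and between B4 libraries 0.156 to 0.192. Clone A3 differed from Rosa by 0.132, 0.132 and 0.121. The number of calls depended on single co-cultures. Without the T69A library of Rosa, 1369 genes rose and 1618 fell, and without that of B4, 1337 rose and 1627 fell. Without the T6-LOH library of Rosa or of B4, 1963 and 1916 genes rose.

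Several of the genes that fell most were near 0 in B4. Isl1, a LIM-homeodomain transcription factor of mesoderm and islet development, stood at 18.9, 19.3 and 14.4 CPM in Rosa and had 0 counts in all B4 libraries, so it was at least 436-fold lower against a floor of 3 counts over the group (adjusted p = 0.000535). Barx1, a homeobox factor of the stomach mesenchyme, went from 35.0, 15.1 and 30.8 CPM to 0.189, 0 and 0 CPM (log2 difference -8.59 ± 0.46, adjusted p = 0.000703). Crabp1, a retinoic acid binding protein, had 1 count in all of B4 against 12.5, 20.0 and 7.57 CPM in Rosa, a ratio of 1060 with a counting interval of 190 to 41800. The kinase gene Rps6ka6 and the adhesion gene Cadm2 also had 1 count each in B4, with ratios of 886 (159 to 35000) and 810 (145 to 32000). In all, 14 genes had at most 3 counts over the B4 libraries and at least 2 CPM in every Rosa library, and 6 of them were at 0.

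Serpine2 encodes protease nexin 1, an inhibitor of thrombin and plasminogen activators, and was at 140, 62.1 and 136 CPM in Rosa and 1.74, 0.317 and 0.993 CPM in B4, or 0.902% of Rosa (log2 difference -6.82 ± 0.22, adjusted p = 0.000204). Ctsc, the lysosomal protease cathepsin C, fell from 79.6, 72.2 and 97.0 CPM to 0.416, 1.39 and 1.34 CPM (-6.33 ± 0.34, adjusted p = 0.0011). Penk, the proenkephalin precursor of opioid peptides, fell from 36.5, 48.9 and 25.3 CPM to 0.605, 0.515 and 0.216 CPM (-6.35 ± 0.18, adjusted p = 0.000127). For each of these genes, chosen for a large fall with 1 sign in all pairs, all B4 libraries lay far below all Rosa libraries. Rgs2, a regulator of G-protein signalling, and Pde3b, a phosphodiesterase that degrades cyclic AMP, fell to 0.517% and 0.694% of Rosa. Esm1, a secreted proteoglycan also called endocan, Unc5c, a netrin receptor, and the tetraspanin Tspan11 fell to 0.588%, 0.668% and 0.296%. Sprr2h, a small proline-rich protein, fell to 1.11%. Itm2a, a membrane protein, was at 1.11% of Rosa but varied between co-cultures, and its adjusted p of 0.0244 rose to 0.0753 to 0.11 without a library of the T6-LOH or T69A pair and to 0.117 with no low-count filter.

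The genes that rose most went from under 20 CPM in every Rosa library to higher levels in every B4 library. Rgs5, a G-protein signalling regulator known as a pericyte marker, was at 4.16, 6.93 and 3.83 CPM in Rosa and 150, 183 and 324 CPM in B4, 44.1-fold higher (log2 difference 5.43 ± 0.44, adjusted p = 0.00397). Chil1, a secreted chitinase-like glycoprotein, was at 0.104, 0.0428 and 0.0877 CPM in Rosa and 6.09, 19.5 and 11.9 CPM in B4 (7.10 ± 0.38, adjusted p = 0.000362). Lpl, the lipoprotein lipase that releases fatty acids from circulating lipoproteins, rose from 11.4, 6.25 and 18.3 CPM to 101, 91.6 and 138 CPM (3.29 ± 0.21, adjusted p = 0.00106). Every B4 library lay above every Rosa library for these genes. Gas6, the ligand of the TAM receptor tyrosine kinases, rose 11.3-fold, and Angpt4, a ligand of the endothelial receptor Tie2, 16.2-fold. Frzb, a secreted Wnt antagonist, rose 16.6-fold, Cpz, a carboxypeptidase with a Wnt-binding domain, 52.6-fold, and Boc, a Hedgehog co-receptor, 9.61-fold. Itga9, an integrin subunit, Lmod1, a leiomodin of smooth muscle, and Megf10, an engulfment receptor, rose 13.6-fold, 11.2-fold and 7.92-fold. Crybg1 rose 9.87-fold and Sparcl1, a matricellular protein, 8.22-fold (adjusted p = 0.00576, and 0.0502 with no organoid block). Fabp7, a fatty acid binding protein, and Cntfr, the ciliary neurotrophic factor receptor, had means 24.5-fold and 7.64-fold higher. Their adjusted p-values of 0.0136 and 0.00944 rose without the Rosa T69A library to 0.0906 and 0.066, and without the B4 T69A library to 0.115 and 0.0562. With no low-count filter that of Fabp7 was 0.064. The neural adhesion gene Cntn2, singled out after its values were seen, was the converse of Isl1. It had 2 counts over the Rosa libraries and 12.5, 3.73 and 2.59 CPM in B4, a ratio of 243 (67.3 to 2010).

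**Figure D2:**
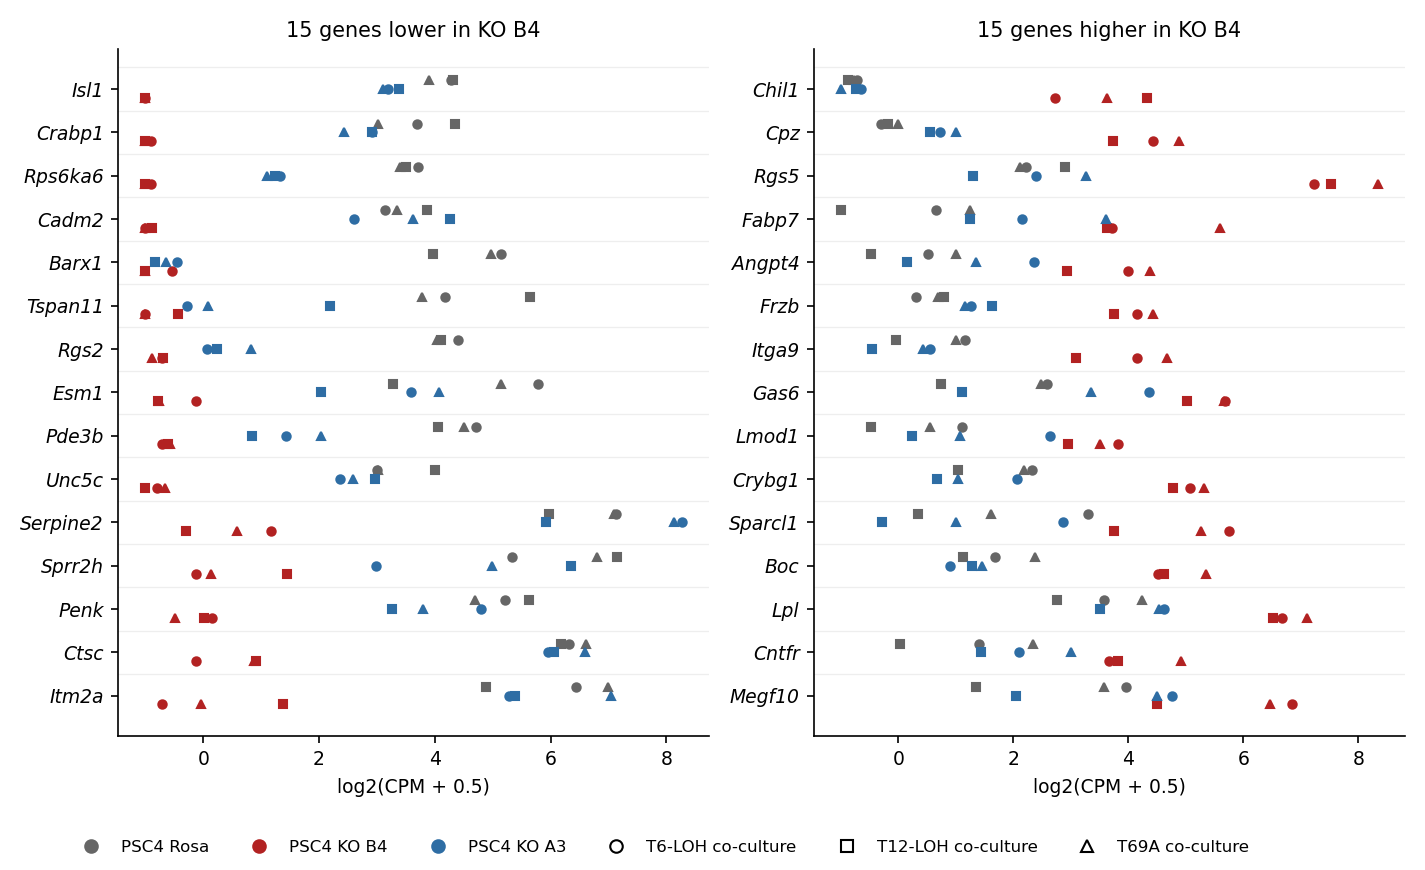
Level of the 15 protein-coding genes with the largest fall (left) and the largest rise (right) in B4 among those passing the test with at least 10 CPM in the higher group, as log2(CPM + 0.5) in each library of Rosa, B4 and A3; symbols give the organoid line. These 30 genes were chosen in the same libraries for large changes of 1 sign, so Rosa and B4 lie apart by selection. A3 lies near Rosa for genes such as Ctsc and Boc and near B4 for Barx1.

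The differences were not spread evenly over the genome. The median log2 difference of the tested genes was -0.51 on chromosome 3, -0.33 on chromosome 4, -0.46 on chromosome 8 and 0.49 on chromosome 10, while on the other 16 chromosomes it lay between -0.21 and 0.20. On chromosome 3, 408 of 706 tested genes fell and 28 rose. On chromosome 8, 412 of 728 fell and 46 rose, and on chromosome 4, 388 of 842 fell and 67 rose. On chromosome 10, 423 of 679 rose and 35 fell. These 4 chromosomes together had 61.2% of their genes called, against 37.7% on the other 16, and chromosomes 3, 4 and 8 held 1208 of the genes that fell, or 40.9%. The shift was present along the whole length of each. With the genes of a chromosome divided by order into 8 equal parts, the medians ran from -0.59 to -0.34 on chromosome 3, from -0.39 to -0.23 on chromosome 4, from -0.54 to -0.42 on chromosome 8 and from 0.40 to 0.56 on chromosome 10. All 3 co-cultures showed it. The share of all counts from chromosome 10 was 5.17, 5.16 and 5.14% in Rosa and 7.06, 7.17 and 7.02% in B4, and that from chromosome 3 was 5.04, 4.91 and 4.87% in Rosa and 3.55, 3.45 and 3.55% in B4. In A3 the medians were -0.27 on chromosome 3 and 0.29 on chromosome 16, and between -0.05 and 0.05 elsewhere. Only RNA was measured, and the part of these shifts in the results below was not tested. The first 2 of the 8 parts of chromosome 19, 124 genes, had medians of -0.58 and -0.49, and its other parts lay between -0.22 and -0.04. Counts are also given for genes outside chromosomes 3, 4, 8 and 10, an alternative chosen after seeing the data that still includes chromosome 19. Genes named without a chromosome may also lie on these chromosomes.

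**Figure D3:**
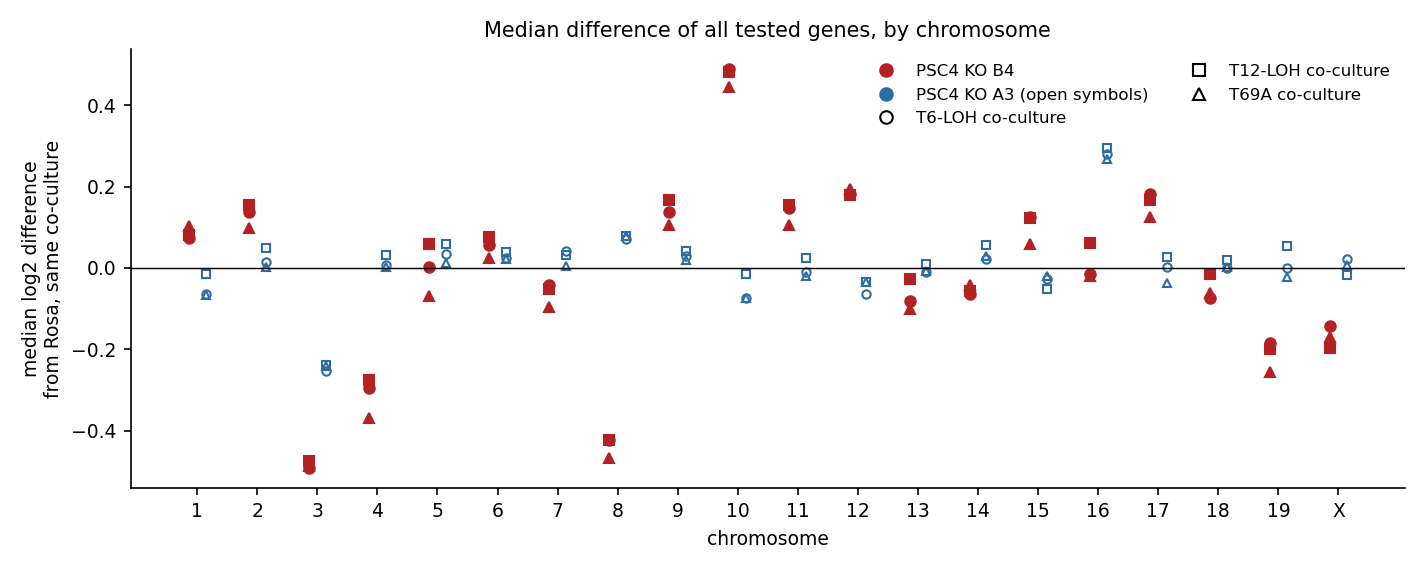
Median log2 difference from the Rosa library of the same organoid line over all tested genes of each chromosome, for B4 (filled symbols) and A3 (open symbols). In B4 chromosomes 3, 4 and 8 lie below the rest and chromosome 10 above, in every co-culture; A3, which is set against the same Rosa libraries, departs on chromosomes 3 and 16.

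Grouped by function, the lists in which most measured members fell in B4 were cell cycle, glycolysis and cholesterol synthesis genes, and those in which most rose were circadian clock genes and clustered protocadherins. The counts below are of genes passing the test over all genes, to be read against 21.3% higher and 21.4% lower among all tested genes. Counts outside the 4 shifted chromosomes are to be read against 2382 of 10871 tested genes higher and 1714 lower there. Those with a library left out go with the totals of that run, such as 1369 higher and 1618 lower without the Rosa T69A library.

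**Figure D4:**
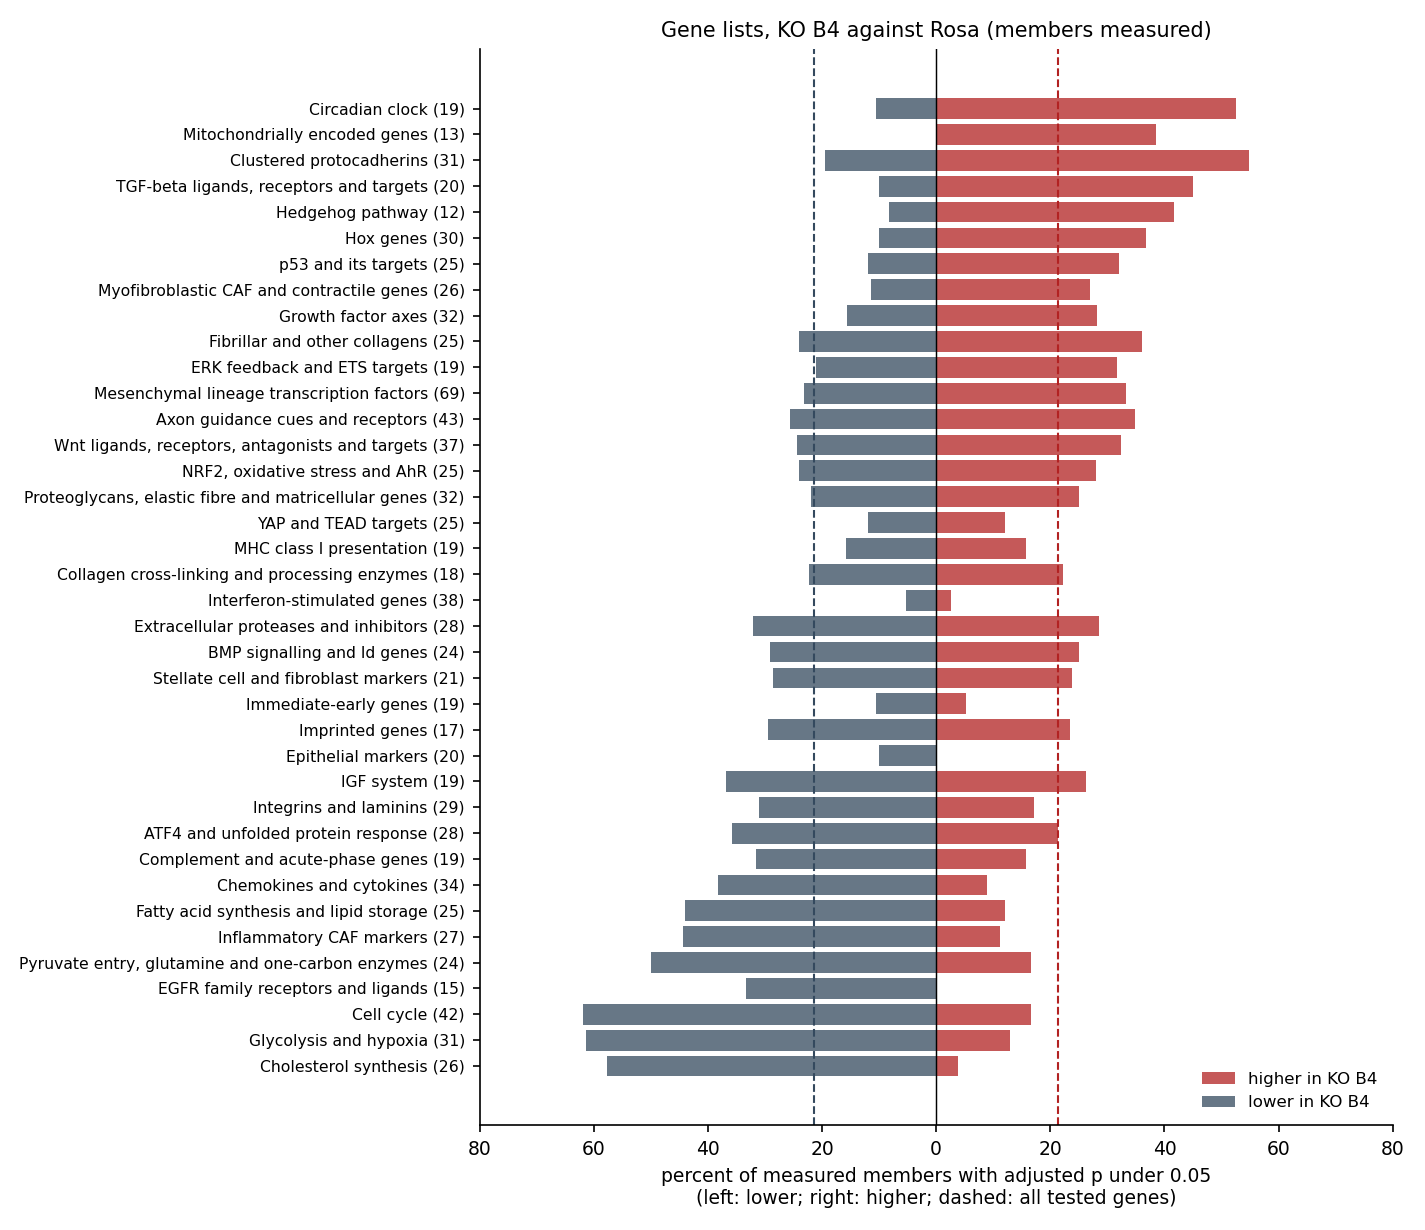
Percent of the measured members of each gene list that rose (right) or fell (left) in B4 at an adjusted p under 0.05, with the number measured in parentheses and dashed lines at the shares among all tested genes. Cell cycle, glycolysis and cholesterol synthesis extend farthest to the left, and protocadherins and clock genes farthest to the right.

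Cell cycle genes were mostly lower. Of 42 measured, 26 fell and 7 rose, with a median log2 difference of -0.58 against 0.012 over all genes. Outside the 4 shifted chromosomes 19 of 31 fell and 5 rose. Cdk6, a kinase that phosphorylates the retinoblastoma protein in G1, fell from 50.7, 57.6 and 41.6 CPM to 14.5, 12.8 and 10.2 CPM (-1.99 ± 0.10, adjusted p = 0.000271). Foxm1, the transcription factor of G2 and M phase genes, fell from 190, 219 and 194 CPM to 112, 121 and 97.7 CPM (-0.86 ± 0.07, adjusted p = 0.000931). The mitotic kinesin Kif11 and the chromosomal passenger protein Cdca8, on chromosome 4, fell to 53.5% and 43.8% of Rosa. Mki67, the proliferation antigen, and Ccna2, cyclin A on chromosome 3, both singled out after their values were seen, fell to 55.5% and 38.2%. The 26 that fell also included the kinase inhibitors Cdkn1c and Cdkn2c. The fall did not cover all replication genes. Mcm2, Mcm3, Mcm6, Mcm7 and Pcna did not pass, with log2 differences of 0.022 to 0.162, while Mcm5 fell. E2f1 and Cdk1 did not pass either. The 7 rising members were Ccnd2, Ccne1, Cdk2, Cdk4, Cdkn1b, Mcm4 and Rrm2. Mcm4 missed the threshold without any 1 of the libraries (adjusted p = 0.0843 to 0.192) and Rrm2 without a T6-LOH or T69A library (0.0561 to 0.0852). Ccnd2, a D-type cyclin that partners with G1 kinases, rose from 161, 92.0 and 159 CPM to 333, 240 and 323 CPM (1.15 ± 0.09, adjusted p = 0.000887), and Cdk4 on chromosome 10 rose 1.45-fold. Thus Cdk6 and Cdk4, which share the D-type cyclins as partners, moved in opposite directions.

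Glycolysis and hypoxia genes were likewise lower, with 19 of 31 measured members falling and 4 rising (median -0.46), and 1 rising without either T69A library. Outside the shifted chromosomes 15 of 24 fell. Aldoc, an aldolase isoenzyme, fell from 9.57, 5.26 and 13.2 CPM to 0.492, 0.515 and 0.691 CPM (-3.97 ± 0.26, adjusted p = 0.000491). Slc2a3, the glucose transporter GLUT3, fell from 14.4, 11.6 and 20.1 CPM to 2.72, 2.58 and 2.72 CPM (-2.48 ± 0.17, adjusted p = 0.000602). Pfkp, a phosphofructokinase, fell to 30.7% of Rosa, and the hypoxia-inducible genes Bnip3 and Ndrg1 to 51.9% and 50.9%. Ldha, the lactate dehydrogenase, and Eno1, an enolase on chromosome 4, were at 54.5% and 56.8%. The hypoxia-inducible growth factor Vegfa went the other way and rose 1.42-fold, from 261, 277 and 350 CPM to 351, 410 and 505 CPM (0.51 ± 0.07, adjusted p = 0.0035, and 0.0578 with no organoid block). Ldha, Eno1 and Vegfa were picked out with their values already seen. Of 24 enzymes of pyruvate entry, glutamine and one-carbon metabolism 12 fell and 4 rose, and outside the shifted chromosomes 9 of 18 fell. Pcx, pyruvate carboxylase, fell to 33.1% of Rosa (-1.57 ± 0.09, adjusted p = 0.000415), and the serine synthesis enzymes Psat1 and Phgdh to 45.9% and 54.1%. The glutamine transporter Slc38a1 rose 1.68-fold.

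Cholesterol synthesis genes fell by an amount that differed between the co-cultures. Of 26 measured, 15 fell and 1 rose, and outside the shifted chromosomes 10 of 19 fell. The median log2 difference was -0.25 with T6-LOH, -1.09 with T12-LOH and -0.77 with T69A. Each value compares 1 B4 library with 1 Rosa library, so a dependence on the organoid line could not be tested. Srebf2, the transcription factor that controls the pathway, fell from 646, 780 and 689 CPM to 407, 402 and 376 CPM (-0.83 ± 0.09, adjusted p = 0.00148). Msmo1, a sterol demethylase on chromosome 8, was at 313, 390 and 351 CPM in Rosa and 168, 104 and 137 CPM in B4 (-1.38 ± 0.21, adjusted p = 0.00956). Scap, the escort protein that carries SREBP from the endoplasmic reticulum, rose 1.26-fold (adjusted p = 0.00938, and 0.0516 to 0.0589 without a T69A library or the B4 T6-LOH library). The number of falling members was 1 without either T69A library, 8 with no low-count filter and 18 without either T6-LOH library. Among them, Msmo1 had adjusted p-values of 0.0775 and 0.076 without the Rosa or the B4 T69A library, while Srebf2 passed in every alternative run. Of 25 genes of fatty acid synthesis and lipid storage 11 fell and 3 rose, with 3 falling when either T69A library was left out and 7 of 19 falling outside the shifted chromosomes. Fads1, a fatty acid desaturase, fell to 63.4% of Rosa, while Cebpa, a transcription factor of adipocyte differentiation, rose 6.06-fold from 5.13, 6.42 and 9.77 CPM to 44.3, 28.6 and 56.3 CPM (2.60 ± 0.19, adjusted p = 0.00103). Cebpa and Lpl, both linked to fat storage, were thus higher while most synthesis genes that changed were lower.

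Circadian clock genes were mostly higher. The clock is a feedback loop in which CLOCK and its partner BMAL1 bind E-boxes and activate Per, Cry and Nr1d genes, whose products repress them in turn. Of 19 measured members 10 rose and 2 fell, and outside the shifted chromosomes 10 of 15 rose and none fell. Leaving out either library of the T6-LOH or the T69A pair left 6 rising, and without either T69A library none fell. Nr1d1, the repressor REV-ERB alpha, rose from 33.1, 17.2 and 22.0 CPM to 82.2, 49.6 and 54.5 CPM (1.39 ± 0.08, adjusted p = 0.000426). Its paralog Nr1d2 rose 1.55-fold, and Per2, a period protein, rose 2.05-fold. Bhlhe41, a repressor that competes for E-boxes, rose from 6.34, 3.72 and 5.12 CPM to 26.2, 13.0 and 11.0 CPM (1.66 ± 0.20, adjusted p = 0.00223). Ciart, a clock repressor on chromosome 3, was the opposite case, at 9.39, 15.8 and 13.5 CPM in Rosa and 5.71, 4.68 and 5.31 CPM in B4 (-1.27 ± 0.21, adjusted p = 0.00644, and 0.0675 or 0.0684 without the Rosa or the B4 T69A library). Sampling times are not given in the labels.

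The canonical E-box CACGTG, which reads the same on both strands, was searched for in RefSeq promoter windows of 300 bases (build GRCm38.p6). It was present in 5 of the 16 matched clock genes (31.2%) and in 8.09% of all 27025 genes, or 7.15% of all 32851 windows. The 3 windows of genes that changed in B4 are shown, each 5′ to 3′ on the strand of the gene with the E-box in capitals. Per1 lies at chr11:69098699-69098998 on the plus strand, Bhlhe41 at chr6:145865371-145865670 on the minus strand and Ciart at chr3:95882179-95882478 on the minus strand.
Per1: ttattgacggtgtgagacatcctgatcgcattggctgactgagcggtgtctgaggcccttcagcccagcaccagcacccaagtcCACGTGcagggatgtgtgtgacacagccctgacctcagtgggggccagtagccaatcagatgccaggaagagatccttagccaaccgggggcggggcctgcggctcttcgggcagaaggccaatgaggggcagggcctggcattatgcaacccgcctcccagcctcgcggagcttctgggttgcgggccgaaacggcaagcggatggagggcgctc
Bhlhe41: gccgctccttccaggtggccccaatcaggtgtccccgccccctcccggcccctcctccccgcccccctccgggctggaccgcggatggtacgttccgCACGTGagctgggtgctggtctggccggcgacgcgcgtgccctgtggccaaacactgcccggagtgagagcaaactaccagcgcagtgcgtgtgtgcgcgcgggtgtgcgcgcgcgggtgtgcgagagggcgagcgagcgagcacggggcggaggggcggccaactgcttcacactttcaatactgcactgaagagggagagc
Ciart: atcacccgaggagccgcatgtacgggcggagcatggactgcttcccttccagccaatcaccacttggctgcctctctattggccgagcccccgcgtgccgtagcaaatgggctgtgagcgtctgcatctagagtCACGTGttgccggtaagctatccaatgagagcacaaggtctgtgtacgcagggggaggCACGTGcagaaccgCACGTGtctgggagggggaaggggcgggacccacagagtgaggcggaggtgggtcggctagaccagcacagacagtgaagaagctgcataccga
Per1, a period gene named because its window holds the motif, was at 50.7, 42.3 and 43.1 CPM in Rosa and 62.3, 57.7 and 66.5 CPM in B4 (0.46 ± 0.09, adjusted p = 0.00989, and 0.0634 or 0.065 without the Rosa or the B4 T69A library). Bhlhe41, with 1 E-box, rose, and Ciart, with 3, fell, so genes holding these letters did not move in 1 direction. Cry1 and Tef also held the E-box and did not pass (log2 differences -0.045 and 0.107, adjusted p = 0.706 and 0.264). Clock, Nr1d1, Nr1d2, Rora, Dbp and Nfil3 rose with no E-box in their windows. A match describes the sequence and is not a measurement of binding.

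**Figure D5:**
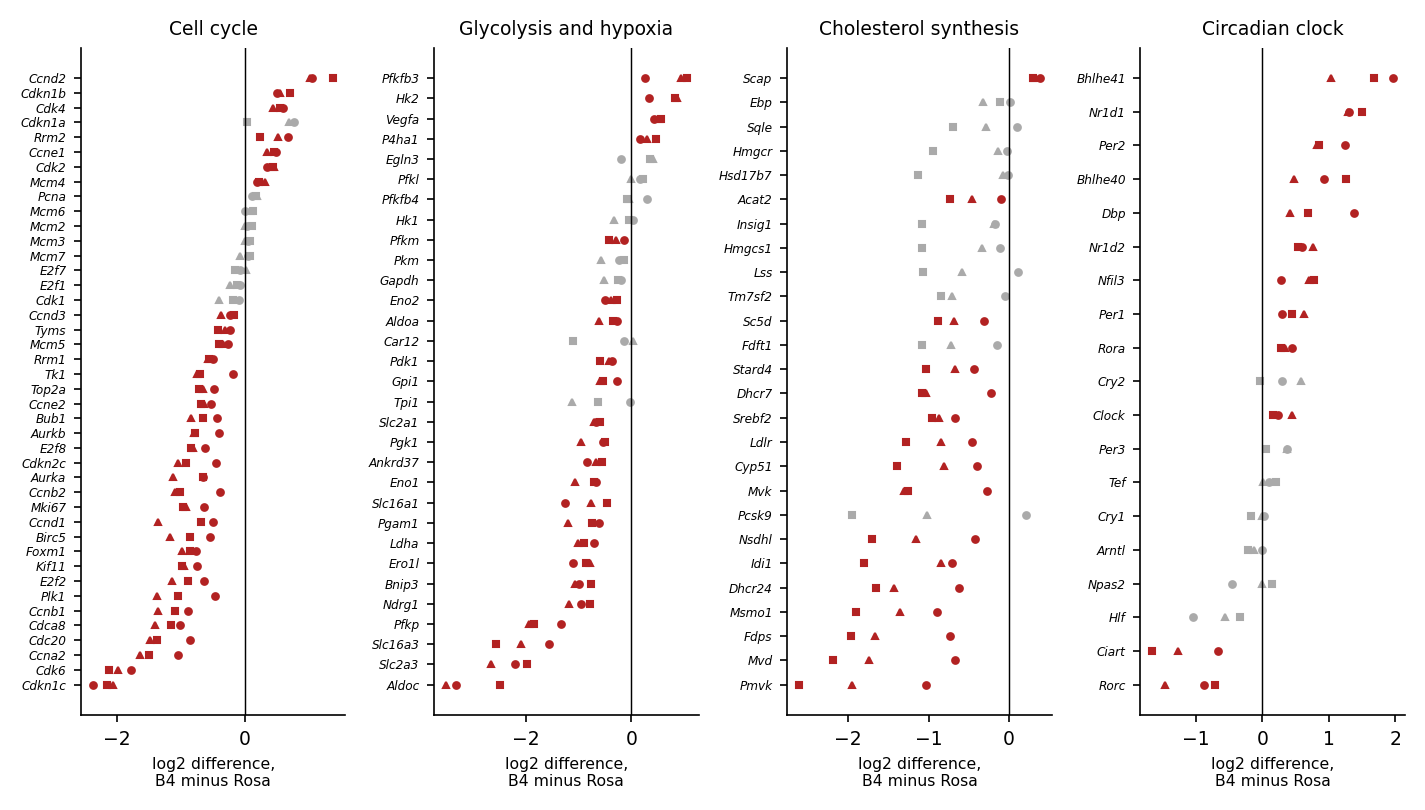
Log2 difference between B4 and Rosa, from log2(CPM + 0.5), for every measured member of 4 gene lists in the T6-LOH (circles), T12-LOH (squares) and T69A (triangles) pairs; red genes passed the test and grey genes did not. Most cell cycle, glycolysis and cholesterol genes lie left of 0, the T6-LOH circles of the cholesterol genes lie nearest to 0, and most clock genes lie right of 0.

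Inflammatory CAF markers fell more often than they rose, and cytokine genes did too. Of 27 inflammatory CAF markers measured, 12 fell and 3 rose (median -0.79), and of 34 chemokines and cytokines 13 fell and 3 rose (median -0.60). Without either T69A library, 8 members of each list fell. Outside the shifted chromosomes 10 of 21 and 11 of 30 fell. Il1rl1, the receptor of interleukin 33, fell from 166, 221 and 69.8 CPM to 18.5, 24.4 and 4.19 CPM (-3.41 ± 0.20, adjusted p = 0.000999). Its ligand Il33, singled out after its values were seen, was at 168, 525 and 168 CPM in Rosa and 5.37, 45.9 and 14.9 CPM in B4 (-3.93 ± 0.40, adjusted p = 0.00647, and 0.0837 or 0.116 without the Rosa or the B4 T12-LOH library). The receptor and its ligand stood at 10.3% and 7.67% of Rosa. Cxcl5, a neutrophil-attracting chemokine, fell from 458, 707 and 682 CPM to 25.6, 86.0 and 64.6 CPM (-3.52 ± 0.27, adjusted p = 0.0021). Has1, a hyaluronan synthase, Cd34, a surface sialomucin of adventitial fibroblasts, and the fibril-associated collagen Col14a1 fell to 9.85%, 2.33% and 20.4% of Rosa. The NF-kappaB subunit genes Nfkb1, on chromosome 3, and Nfkb2, on chromosome 19, fell to 62.2% and 64.1%. Il6, the cytokine that defines inflammatory CAFs, did not pass, at 124, 232 and 118 CPM in Rosa and 32.9, 150 and 90.4 CPM in B4 (-0.95 ± 0.38, adjusted p = 0.137). The 3 inflammatory CAF markers that rose were Cxcl12, Pi16 and C3. Cxcl12, the ligand of CXCR4, rose from 1241, 383 and 1051 CPM to 2867, 1205 and 2372 CPM (1.35 ± 0.12, adjusted p = 0.00107, and 0.105 with no organoid block). The log2 differences of Pi16, picked out after its values were seen, and C3 were 2.28 and 0.835.

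Contractile and matrix genes were mixed. Of 26 myofibroblastic CAF and contractile genes 7 rose and 3 fell, with 4 or 3 rising without the Rosa or the B4 T6-LOH library and 12 without either T12-LOH library, and 7 rising and 2 falling among the 20 outside the shifted chromosomes. Cnn1, the smooth-muscle protein calponin, rose from 10.0, 3.0 and 7.25 CPM to 51.9, 21.9 and 25.8 CPM (2.33 ± 0.20, adjusted p = 0.00134). Mylk, the myosin light chain kinase, rose 2.11-fold, and Tnc, the matrix protein tenascin C on chromosome 4, fell to 33.4% of Rosa. Acta2, the smooth-muscle actin that defines myofibroblastic CAFs, was at 299, 30.2 and 110 CPM in Rosa and 630, 236 and 275 CPM in B4 and missed the threshold (1.76 ± 0.48, adjusted p = 0.0612). Its Rosa and B4 ranges overlapped, although B4 was higher within each pair. Of 25 collagen genes 9 rose and 6 fell (median 0.17), with 5 rising without either T69A library. With the shifted chromosomes left out, 4 of 15 rose and 5 fell (median -0.03). Col4a1, a basement-membrane collagen, rose from 664, 392 and 618 CPM to 1795, 1062 and 1488 CPM (1.38 ± 0.09, adjusted p = 0.000452). Col1a2 rose 2.22-fold and Col3a1 fell to 43.3% of Rosa, with adjusted p-values of 0.000863 and 0.00153, and 0.0822 and 0.0627 with no organoid block. Col1a1, which encodes the other chain of type I collagen, was at 6451, 3926 and 5952 CPM in Rosa and 7761, 4358 and 6311 CPM in B4 and did not pass (adjusted p = 0.229). The fibrillar collagens of these cells thus included members with higher, lower and undetected differences. Mmp13, an interstitial collagenase, was at 210, 1107 and 825 CPM in Rosa and 73.8, 429 and 284 CPM in B4 (-1.47 ± 0.08, adjusted p = 0.00036, and 0.222 with no organoid block), while Mmp11 and Mmp23 rose 2.59-fold and 3.51-fold. Among integrins and laminins 5 of 29 rose and 9 fell, with 3 falling without either T69A library, and outside the shifted chromosomes 5 of 24 rose and 8 fell. Itgb3, the beta subunit of the vitronectin receptor, rose 4.78-fold and Itga4, a subunit of a fibronectin and VCAM1 receptor, fell to 4.94% of Rosa.

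Of 20 TGF-beta ligands, receptors and targets 9 rose and 2 fell (median 0.33), with 5 rising without a T12-LOH or T69A library and 7 of 16 rising outside the shifted chromosomes. Tgfb3, a TGF-beta ligand, rose from 32.6, 18.3 and 29.0 CPM to 103, 40.6 and 91.5 CPM (1.5 ± 0.12, adjusted p = 0.000999), and Smad3, which carries the signal to the nucleus, rose 1.35-fold. Nox4, 1 of the 2 that fell, was at 1.21, 0.599 and 1.11 CPM in Rosa and had 0 counts in all B4 libraries (adjusted p = 0.00621). It was at least 24.2-fold lower against a floor of 3 counts over the group. Among 37 Wnt genes 12 rose and 9 fell, with 4 and 4 without either T69A library, and outside the shifted chromosomes 9 and 7 of 30. Rspo3, a secreted amplifier of Wnt signalling, fell from 17.3, 36.6 and 31.4 CPM to 0.757, 2.22 and 1.17 CPM although it lies on chromosome 10 (-4.39 ± 0.17, adjusted p = 0.000185). Lrp5, a Wnt co-receptor, fell to 50.7% of Rosa and the receptor Fzd7 rose 1.74-fold. In the Hedgehog list 5 of 12 rose and 1 fell, with 3 rising without the Rosa T6-LOH library or either T69A library and 2 without the B4 T6-LOH library. Of the 9 outside the shifted chromosomes 2 rose. Foxf1, a Hedgehog-induced transcription factor of gut mesenchyme, rose 4.92-fold, whereas Ptch1, the receptor and common target of the pathway, fell from 145, 141 and 154 CPM to 61.3, 58.1 and 52.8 CPM (-1.35 ± 0.08, adjusted p = 0.000435). Gli1, a transcription factor of the pathway on chromosome 10, rose from 0.901, 0.214 and 0.468 CPM to 9.91, 0.991 and 1.08 CPM (2.43 ± 0.5, adjusted p = 0.0122). Its pair differences were 2.89, 1.06 and 0.71, largest with T6-LOH. Ptch1 and Gli1 thus moved in opposite directions. Among 32 growth factor genes 9 rose and 5 fell, with 3 falling without either T6-LOH or either T69A library and 11 without either T12-LOH library. Outside the shifted chromosomes 7 of 24 rose and 4 fell. Pdgfb, a ligand of the PDGF receptors, rose from 3.22, 0.984 and 3.30 CPM to 21.6, 14.8 and 19.1 CPM (2.97 ± 0.28, adjusted p = 0.0016). Its receptor gene Pdgfrb was at 321, 360 and 367 CPM in Rosa and 343, 349 and 390 CPM in B4 and did not pass (adjusted p = 0.617). Fgf10, an epithelial growth factor made by mesenchyme, and Angpt1, a Tie2 ligand, fell to 11.2% and 8.24% of Rosa. Angpt1 fell while Angpt4, a ligand of the same receptor, rose.

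Of the 15 EGFR family receptors, ligands and regulators measured, 5 fell and none rose, with 2 falling without either T69A library and 8 without either T12-LOH library. Of the 11 outside the shifted chromosomes 4 fell. Errfi1, a feedback inhibitor of EGFR on chromosome 4, fell from 669, 716 and 748 CPM to 213, 257 and 311 CPM (-1.46 ± 0.10, adjusted p = 0.000602). Lrig1, which promotes degradation of the receptor, fell from 270, 410 and 308 CPM to 183, 227 and 195 CPM (-0.69 ± 0.08, adjusted p = 0.00202). Ereg, the ligand epiregulin, was at 517, 541 and 464 CPM in Rosa and 209, 366 and 314 CPM in B4 (-0.81 ± 0.18, adjusted p = 0.0212, and 0.0663 or 0.0657 without the Rosa or the B4 T69A library). Tgfa, another ligand, was at 2.22, 1.41 and 3.51 CPM in Rosa and 0.530, 0.753 and 1.34 CPM in B4 (-1.44 ± 0.32, adjusted p = 0.0149, and 0.0716 to 0.102 without a T6-LOH or T69A library). Together with Egfr these are the 5 that fell, and they include a receptor, ligands and inhibitors of the receptor.

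ERK feedback and ETS target genes did not move in 1 direction, with 6 of 19 rising and 4 falling, and 3 rising and 4 falling among the 15 outside the shifted chromosomes. Dusp4, a nuclear phosphatase that inactivates ERK, rose from 57.2, 38.8 and 50.9 CPM to 126, 70.3 and 89.1 CPM although it lies on chromosome 8 (0.94 ± 0.09, adjusted p = 0.00108). Phlda1, an ERK-responsive gene on chromosome 10, rose 1.93-fold. Etv1, an ETS factor, fell from 50.9, 83.8 and 71.3 CPM to 29.9, 52.6 and 44.7 CPM (-0.70 ± 0.07, adjusted p = 0.00139), and Fosl1, an AP-1 subunit, fell to 54.6% of Rosa (adjusted p = 0.0011). With no organoid block their adjusted p-values were 0.0912 and 0.0569 and none of the 19 fell. Among 19 immediate-early genes 1 rose and 2 fell, with 3 and 3 without either T6-LOH library. The 3 that changed lie on chromosomes 8 and 10. Egr2, a zinc-finger factor on chromosome 10, rose from 102, 49.3 and 101 CPM to 375, 392 and 784 CPM (2.62 ± 0.29, adjusted p = 0.00601, and 0.0608 without the B4 T12-LOH library), and Jund, an AP-1 subunit on chromosome 8, fell to 62.4% of Rosa.

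Genes of positional and lineage identity differed in both directions. Of 69 mesenchymal lineage transcription factors 23 rose and 16 fell, and outside the shifted chromosomes 21 and 13 of 59. Eya4, a transcriptional co-activator, rose from 3.12, 4.75 and 3.57 CPM to 27.0, 31.9 and 29.5 CPM (2.97 ± 0.12, adjusted p = 0.000204). Satb1, a chromatin organizer, fell to 9.05% of Rosa. Of 30 Hox genes 11 rose and 3 fell, with 4 rising and 1 falling without either T69A library, and no measured Hox gene lies on a shifted chromosome. Hoxb13, the most posterior gene of its cluster, rose from 1.11, 2.14 and 1.05 CPM to 11.0, 7.93 and 11.1 CPM (2.85 ± 0.35, adjusted p = 0.00307), while Hoxc10 fell to 20.4%. Of 43 axon guidance genes 15 rose and 11 fell, and outside the shifted chromosomes 12 and 7 of 31. Unc5b, a netrin receptor, rose 3.31-fold, opposite to its relative Unc5c, and Plxnd1, a semaphorin receptor, rose 2.42-fold. The ephrin receptor Epha2 on chromosome 4 and the ephrin Efnb2 on chromosome 8 fell to 32.3% and 34.6%. Of 31 clustered protocadherins, adhesion genes whose promoters are chosen cell by cell and can be kept in a clone, 17 rose and 6 fell (median 1.04), with 14 and 1 without either T69A library. Pcdhb16 rose from 1.52, 1.16 and 1.52 CPM to 10.8, 9.08 and 14.8 CPM (3.04 ± 0.18, adjusted p = 0.000415), and Pcdhb21, Pcdhb20 and Pcdhgb4 rose 5.11-fold, 4.29-fold and 3.23-fold. Neighbouring protocadherins share sequence, and the estimated counts may divide reads between them.

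B4 was also tested directly against A3, the other knockout clone of the same line, in the 9 PSC4 libraries. Of 14093 genes, 3441 were higher (24.4%) and 3461 lower (24.6%) in B4 than in A3. In the same fit A3 against Rosa gave 472 genes higher (3.35%) and 572 lower (4.06%), and it shares its controls with B4 against Rosa. Cadm2, Ctsc and Emb, an immunoglobulin-family protein, were low in B4 and closer to Rosa in A3. For Ctsc, A3 stood at 61.8, 66.2 and 95.7 CPM, and B4 was 6.14 lower on the log2 scale (difference -6.14, adjusted p = 3.49e-05). Ahrr, the repressor of the aryl hydrocarbon receptor, was at 10.3, 8.73 and 15.2 CPM in Rosa, 0.340, 0.238 and 0.561 CPM in B4 and 16.9, 15.8 and 22.4 CPM in A3 (B4 minus A3 -5.60, adjusted p = 2.19e-06). Serpine2 was at 309, 59.9 and 280 CPM in A3 (B4 minus A3 -7.62, adjusted p = 7.55e-05).

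Other genes were low in A3 but not in B4. Dapk1, a death-associated kinase, was at 7.66, 5.56 and 9.62 CPM in Rosa, 29.2, 19.9 and 41.3 CPM in B4 and 0.547, 0.194 and 0.281 CPM in A3 (B4 minus A3 6.45, adjusted p = 4.59e-06). Thy1, a fibroblast surface marker, was at 159, 55.1 and 112 CPM in Rosa, 330, 93.3 and 123 CPM in B4 and 14.3, 1.26 and 6.75 CPM in A3 (B4 minus A3 4.78, adjusted p = 0.000448). Adamts9, a metalloprotease, was below Rosa in both clones, at 28.7, 53.5 and 45.0 CPM in Rosa, 5.71, 23.9 and 12.8 CPM in B4 and 0.456, 0.937 and 0.328 CPM in A3. Col1a2 was at 1486, 662 and 1092 CPM in Rosa, 3507, 1398 and 2279 CPM in B4 and 696, 114 and 404 CPM in A3 (B4 minus A3 2.78, adjusted p = 0.00087), and Col4a1 was at 415, 261 and 387 CPM in A3 (B4 minus A3 2.04, adjusted p = 3.79e-06). For both collagen genes the clones thus lay on opposite sides of Rosa.

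Some genes were low in both clones. Barx1 stood at 0.228, 0.0646 and 0.141 CPM in A3 and did not pass between the clones (B4 minus A3 -1.06, adjusted p = 0.321). Aldoc, at 0.729, 0.517 and 0.469 CPM in A3, did not pass either (-0.04, adjusted p = 0.937). By list, the direct test between the clones is to be read against 24.4% higher and 24.6% lower among all its tested genes. Of the 42 cell cycle genes 27 were lower and 5 higher in B4 than in A3. Of the 31 glycolysis and hypoxia genes 16 were lower, and 7 were higher, near the share over all genes. These counts do not say how A3 stood against Rosa. Of the 19 clock genes 7 were higher in B4 and 1 lower. Nr1d1 was at 60.1, 31.7 and 44.1 CPM in A3, between Rosa and B4 in every co-culture.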

How the data were processed

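RNA from sorted stellate cells of 6 co-cultures (3 of PSC4 Rosa, 3 of clone B4) was sequenced, with 3 libraries of clone A3 as a further comparison. The deposited tables hold estimated counts per transcript, which per the submitters' processing notes the authors made with Salmon 1.9.0 and the mouse build GRCm39 (mm39). Kit, strand setting and annotation were not given in the sources used here. Of 117135 transcripts 115973 (99.0%) were matched by identifier to GENCODE M21, used for gene names, chromosomes and gene order only. Unmatched reads (0.371 to 0.443%) were left out. Estimated counts were summed per gene and rounded.

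The test for each gene was that of edgeR 4.0.16, run in R 4.3.3 (TMM, filterByExpr, robust quasi-likelihood, organoid line as block, Benjamini-Hochberg threshold 0.05), with 2 residual degrees of freedom for B4 against Rosa and 4 for B4 against A3 in 9 libraries. The block rests on the shared organoid line. Values after ± are the absolute log2 difference divided by the square root of the test's F statistic. They use spread shared over genes and are not the SE of the pair differences. DESeq2 1.42.0, RLE scaling, no filter, no block and each library left out were alternatives. The models were tested on simulated data. CPM use TMM library sizes, and intervals of ratios cover counting error only. Replicates were compared by chi-square, and the lowest ratio to degrees of freedom, 33.4, showed no library deposited more than once.

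The members and the gene lists were chosen with earlier results of these data known. Named genes were Egfr, the 15 protein-coding genes per direction with the largest change that passed, had at least 10 CPM in the higher group and kept 1 sign in all pairs, the same with 8 per direction for B4 against A3, up to 5 members per list with the smallest p, and Il6, Acta2, Col1a1, Pdgfrb, Epcam and Krt19. Others are marked as chosen after their values were seen. Results on some items are not reported here.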

Additional observations from a re-analysis of the deposited data

Results flagged for a closer look

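The direct test between the knockout clones B4 and A3 is listed because the clones' differences from Rosa were themselves different by that test. Of the genes tested, 3441 were higher and 3461 lower in B4 than in A3, by edgeR's quasi-likelihood test in the 9 PSC4 libraries. The median absolute log2 difference between B4 and A3 with the same organoid line was 0.255, 0.287 and 0.323, against 0.121 to 0.132 between A3 and Rosa.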

How the results depend on the processing

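No alternative called a gene in the reverse direction among the 5903 genes called between B4 and Rosa or the 6902 called between B4 and A3, and 49.2 to 98.6% and 65.3 to 98.9% of these were called again. When single libraries were left out, 1337 to 2690 genes rose and 1618 to 3056 fell in B4 against Rosa. Against A3, 2381 to 3163 were higher and 2756 to 3226 lower. With chromosomes 3, 4, 8 and 10 left out, 2382 of 10871 genes rose and 1714 fell, and chromosomes 3, 4 and 8 held 1208 of the genes that fell. With no organoid block 2203 genes were higher in B4 than in A3, against 3441, and the cause was not tested. DESeq2, RLE scaling and no low-count filter kept these counts within 1.5 times. So did all 9 PSC4 libraries for B4 against Rosa, and the B4 and A3 libraries alone for B4 against A3. Leaving out 1 library did not always do so, with 1369 genes rising and 1618 falling in B4 against Rosa without the Rosa T69A library. The Egfr log2 difference was -0.57 to -0.99 with single pairs left out. Leaving out 1 library leaves 2 complete pairs and 1 residual degree of freedom. Between groups of 3 libraries, an exact permutation test cannot reach p under 0.1, and calls rest on the spread that edgeR shares over genes. No paired analysis by replicate number was possible because the groups share no replicate numbers. The pairs are those of the organoid line.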

Other observations

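Interferon-stimulated genes differed between co-cultures rather than in 1 direction. Of 38 measured, 1 rose and 2 fell in B4, and the median log2 difference from Rosa was -0.81 with T6-LOH, 0.80 with T12-LOH and -0.33 with T69A. Isg15, a ubiquitin-like interferon-induced protein singled out after its values were seen, was at 123, 37.1 and 152 CPM in Rosa and 49.6, 60.5 and 87.5 CPM in B4 and did not pass (adjusted p = 0.482). The Rosa library with T12-LOH was the lowest of the Rosa libraries for this gene. Without the T12-LOH library of Rosa or of B4, 18 and 19 of the 38 genes fell. Cmpk2, a mitochondrial nucleotide kinase induced by interferon, fell from 14.7, 8.04 and 19.2 CPM to 1.85, 2.26 and 1.9 CPM (-2.72 ± 0.32, adjusted p = 0.00289). With 1 library per line and organoid, the difference between co-cultures could not be tested.

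Mitochondrially encoded RNA took a larger share of the counts in B4, 2.75 to 2.83% against 1.95 to 2.42% in Rosa and 2.26 to 2.46% in A3, with no overlap between B4 and these PSC4 libraries. In PSC5, with 1 library each, the share was 2.07% in Rosa, 2.55% in clone C5 and 2.89% in clone D4, so a share this high was not particular to B4. Of 13 mitochondrially encoded genes 5 rose and none fell, with 1 rising without a T6-LOH or T69A library. Among 25 genes of p53 and its targets 8 rose and 3 fell, with 4 rising without either T69A library. Outside chromosomes 3, 4, 8 and 10, 5 of 15 rose and the 3 that fell are not among them. Mdm2, the ubiquitin ligase of p53, lies on chromosome 10 and rose from 104, 96.6 and 99.2 CPM to 165, 148 and 179 CPM (0.72 ± 0.08, adjusted p = 0.00161). Cdkn2a, a tumor suppressor locus on chromosome 4, fell to 42.7% of Rosa. Imprinted genes moved in both directions, with Grb10, an adaptor that restrains insulin signalling, rising 2.28-fold and Ndn, the growth suppressor necdin, falling to 19.6% of Rosa.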
